A study of Brassica oleracea with 4 samples.

Results

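Lipid transfer proteins are small, secreted plant proteins whose conserved cysteines form disulfide bonds around a hydrophobic tunnel that can hold a fatty acid or another lipid. They are best known in the epidermis, where they are linked to the wax and cutin of the cuticle, and several are induced by drought, cold, abscisic acid or infection. As a class they count among the pathogenesis-related proteins. The broccoli genes with this annotation were Bo2g026830, which matches Arabidopsis AT5G59320 and is annotated as lipid transfer protein 3 (LTP3), Bo2g026820, which matches AT5G59310 and is annotated as LTP4, and Bo9g120390, which matches AT5G55410. The last is annotated more broadly, to the superfamily that joins bifunctional inhibitors, lipid transfer proteins and the 2S albumins, a class of seed storage proteins. A place in that superfamily does not say which of these functions the protein has.

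These 3 genes were found among 135 listed genes by the words "lipid transfer" or "lipid-transfer" in the annotation. The table searched had itself been selected on measured values, since every gene in it differed at least 2-fold between the groups. The same contrast therefore chose the members, and their differences are given as a description without a test. Lipid transfer protein genes outside the table were not analysed here, so the sum over the family below covers the 3 listed genes alone.

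RNA was sequenced from hypocotyls, the stems below the seed leaves, of 10-day-old broccoli (Brassica oleracea) microgreens. One group was sprayed once a day with water and the other with 10 mmol/L calcium chloride (CaCl2). Both groups grew on hydroponic pads at 25 °C, in darkness for 4 days and then under 12 h of light a day. The labels give 2 libraries for each group, but the values used here hold 1 RPKM (a read count scaled by gene length and by the total of mapped reads) for each gene and group. No spread between libraries could be computed, the depth of the libraries is unknown, and no order of levels below has an error. In these bulk samples a change in the cells that make up the tissue and a change of RNA per cell cannot be told apart. The 12 cotyledon and leaf marker genes of the table were all lower with calcium. They summed to 15889 RPKM in the water group and 7147 RPKM in the calcium group, and the part of this shift in the results on lipid transfer proteins was not tested. No epidermis marker word matched a gene of the table, so the tissue in which these proteins are best known was not seen through markers.

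All 3 lipid transfer protein genes were higher after the calcium spray. They summed to 340 RPKM in the water group and 1444 RPKM in the calcium group, a 4.25-fold difference. LTP3 lay above 5-fold and LTP4 at that limit (4.94-fold with 1 RPKM added to both groups), while Bo9g120390 lay between 2-fold and 3-fold. Over all listed genes, 52.6% were at least 2-fold higher with calcium and 47.4% at least 2-fold lower. At a limit of 3-fold the count was 2 of the 3 members, beside 25.2% of the table. At a limit of 4-fold it was again 2 of 3, beside 16.3%. With a membership of 3 and a table that was selected on this contrast, nothing is read from these shares.

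LTP3 was at 135 RPKM in the water group and 753 RPKM in the calcium group. This is a ratio of 5.57, or 2.48 on the log2 scale. In Arabidopsis, LTP3 is known as a drought- and abscisic acid-responsive gene and a target of the transcription factor MYB96. With calcium its level had rank 7 among the 135 genes, against rank 34 with water. Its gain of 618 RPKM had rank 4 in the table, after the EF-hand gene Bo4g197210 (1463 RPKM), the pathogenesis-related gene PR-4 (653 RPKM) and the vacuolar calcium exchanger CAX1 (Bo4g187430, 633 RPKM).

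LTP4 stood at 62.9 RPKM in the water group and 315 RPKM after calcium. It was thus 5.003-fold higher, or 2.32 on the log2 scale. With water it lay close to the median level of the table, 61.3 RPKM, and had rank 66. With calcium it had rank 16, where the median was 62.9 RPKM. LTP4 gained 252 RPKM.

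Bo9g120390 stood at 142 RPKM in the water group and 376 RPKM after calcium. The ratio of 2.65, or 1.41 on the log2 scale, was the lowest of the members and below the median of the 71 higher genes, 2.98-fold. With a gain of 234 RPKM it moved from rank 33 to rank 13. The authors' deposited table lists an adjusted p-value of 0 for LTP3, LTP4 and Bo9g120390, as for 41 genes in all and for 22 of the 71 higher genes. It puts all 3 in its cluster 1, which holds every higher gene.

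**Figure D1:**
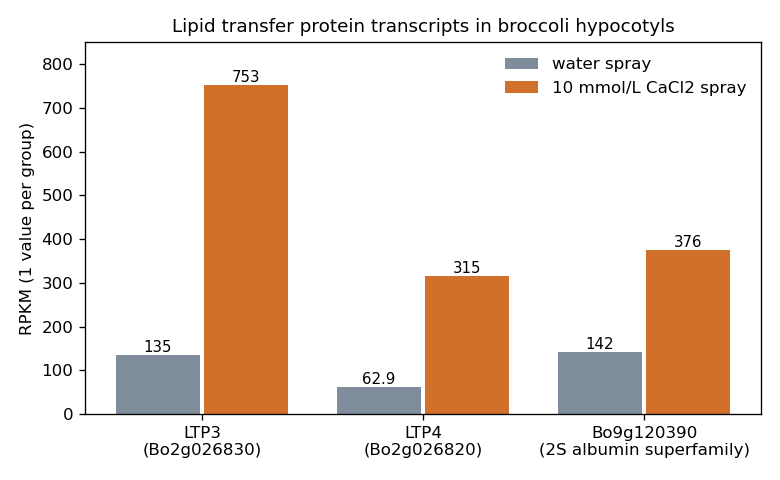
RPKM of the 3 lipid transfer protein genes with water (grey) and with 10 mmol/L CaCl2 (orange), 1 value for each group and so without error bars. Bo9g120390 was the highest of the 3 with water (142 RPKM), and LTP3 was the highest with calcium (753 RPKM).

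The order of the members differed between the groups. RPKM is scaled to gene length, so levels can be set side by side as far as the annotated lengths are right. With water Bo9g120390 and LTP3 were nearly level, with LTP3 at 0.952 times Bo9g120390, and LTP4 was the lowest. With calcium LTP3 was at 2.002 times Bo9g120390, and LTP4 came nearer to it, at 0.837 times against 0.444 times with water. The distance from the highest to the lowest member was about as wide in both groups, 2.25-fold with water and 2.39-fold with calcium.

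Bo9g120390 made up 41.7% of the family sum with water and 26.0% with calcium. The share of LTP3 was 39.8% with water and 52.2% with calcium, so that with calcium it exceeded the other two together. LTP4 held 18.5% and 21.8%, but of the sum of LTP3 and LTP4 alone it held 31.8% with water and 29.5% with calcium. Of the family's gain of 1104 RPKM, 56.0% was in LTP3, 22.8% in LTP4 and 21.2% in Bo9g120390. Jointly LTP3 and LTP4 went from 58.3% to 74.0% of the sum. The shares within a group do not depend on how the columns were scaled to each other, whereas the shares of the gain do.

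**Figure D2:**
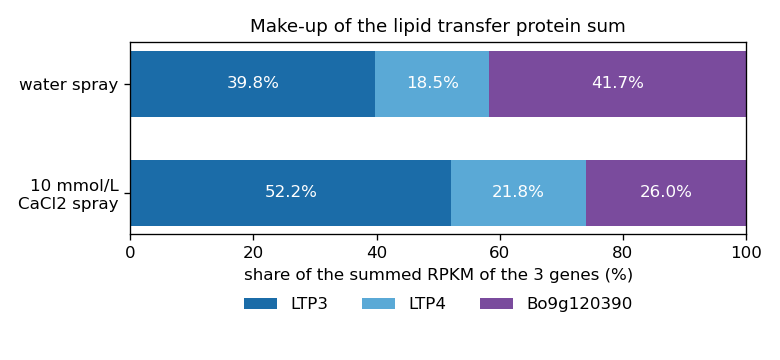
Share of each gene in the summed RPKM of the 3 lipid transfer protein genes, in percent, with water (top) and with 10 mmol/L CaCl2 (bottom). The share of Bo9g120390 was 41.7% with water and 26.0% with calcium, and that of LTP3 was 39.8% and 52.2%.

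LTP3 and LTP4 kept almost the same proportion to each other in both groups. LTP3 was at 2.15 times the level of LTP4 with water and 2.39 times with calcium, a difference of 1.11 times. The quotient of LTP3 to Bo9g120390 differed 2.10 times between the groups, and that of LTP4 to Bo9g120390 differed 1.89 times. The summed level of LTP3 and LTP4 was 198 RPKM without and 1068 RPKM after calcium, 5.39-fold higher. Whether reads were shared between these related genes was not tested, so the single values of LTP3 and LTP4 are less certain than their sum.

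The identifiers of LTP4 and LTP3, Bo2g026820 and Bo2g026830, follow each other in steps of 10, as do the numbers of their Arabidopsis matches. In Arabidopsis the genes are neighbours, whereas their positions in broccoli were not used here. The table held 4 pairs of genes with consecutive identifiers, a comparison chosen after the values were seen. In 3 pairs both genes lay on the same side, and in 1 they lay on opposite sides. The ratios of LTP3 and LTP4 were 1.11 times apart. The ratios of the RuBisCO small subunit genes Bo4g137140 and Bo4g137150, which were 2.32-fold and 2.56-fold lower, were also 1.11 times apart. The defensin homologues Bo6g086120 and Bo6g086130 were 8.58-fold and 3.20-fold higher, 2.69 times apart. In the pair with opposite sides, the knottin family gene Bo4g020910 was 4.76-fold lower and the chitinase Bo4g020920 was 6.59-fold higher. Consecutive identifiers thus did not always go with one direction in this table. In the 3 pairs on the same side both genes had a like annotation, whereas the opposite pair joined different families. With 4 pairs, nothing further is read from this.

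Among the higher genes, LTP3 and LTP4 had large ratios for their level with water, though LTP4 lay only near the median of the table there. That level is also the denominator of the ratio. Some lower genes at such levels differed more, among them Bo1g007900 (91.8 RPKM with water, 13.9-fold lower) and Bo6g032890 (219 RPKM with water, 8.13-fold lower). A larger ratio than that of LTP3 was found for 14 genes, whose levels with water lay between 1.44 and 50.6 RPKM. None of these 14 exceeded 333 RPKM with calcium, where LTP3 was at 753 RPKM. Among the 24 higher genes with at least the water level of LTP4, LTP3 and LTP4 had the largest ratios, and the next was CAX1 (Bo4g187430) at 3.62-fold. Calmodulin-like CML41 followed at 3.48-fold and the other CAX1 homologue, Bo4g029730, at 3.26-fold. The limit was set at the level of LTP4 after the values were seen, and the chitinase Bo4g020920, at 50.6 RPKM with water and 6.59-fold higher, lay just outside it. The table holds no gene under 25.8 RPKM in its higher group and no difference under 21.5 RPKM, so genes of low level with small ratios could not appear in it.

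**Figure D3:**
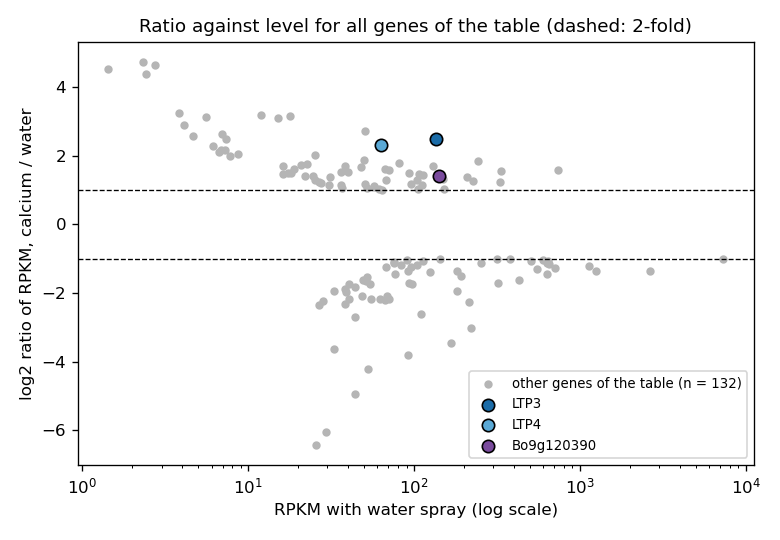
Log2 ratio of RPKM (calcium over water) against RPKM with water on a log axis for the 135 genes, with the other 132 genes in grey and dashed lines at a 2-fold difference. LTP3 (135 RPKM with water, log2 ratio 2.48) and LTP4 (62.9 RPKM, 2.32) lie above every other gene with at least 62.9 RPKM in the water group, and Bo9g120390 (142 RPKM, 1.41) lies among those genes.

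Together the 3 genes made up 1.23% of the summed RPKM of the table with water and 5.88% with calcium. Without the 12 cotyledon and leaf marker genes in the sum, a choice made after the values were seen, the shares were 2.87% and 8.30%. Of the RPKM gained by the 71 higher genes, 9974 in sum, the family held 11.1%.

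For each member the 3 nearest genes were taken by the distance of their log2 RPKM values over the 2 group values. A likeness over so few values says only that the levels were close. Nearest to Bo9g120390 was the EF-hand gene Bo4g013260, at 150 and 374 RPKM and a log2 distance of 0.080, followed by Bo4g029730 (CAX1) at 0.21 and the glycosyl hydrolase BGLU30 at 0.31. Nearest to LTP4 was the chitinase Bo4g020920, at 50.6 and 333 RPKM and a distance of 0.33, followed by CML41 at 0.39 and Bo1g014320, a xyloglucan endotransglucosylase/hydrolase, at 0.59. LTP3 had no gene as near. Its nearest, Bo5g017220 without annotation, was at a distance of 0.79, and the homologues of CAX1 were at 0.83 (Bo4g029730) and 0.87 (Bo4g187430).

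Other genes with lipid or cuticle words in their annotation were few and went apart. Of the 3, 2 were higher and 1 was lower with calcium, where 52.6% of the listed genes were higher. Their median log2 ratio was 1.61, beside 1.04 over the whole table and 1.58 over its 71 higher genes. No listed gene differed less than 2-fold, and 71 were higher and 64 lower. The median of the whole table therefore falls among the smallest of the higher ratios and mainly reflects that split. GLIP3 (Bo3g184360), a lipase of the GDSL motif family, was at 66.6 and 204 RPKM and 3.06-fold higher. BON3 (Bo8g112290), one of the copines, which attach to membrane phospholipids when calcium is present, was at 7.81 and 30.8 RPKM and 3.94-fold higher. The GDSL-like lipase and acylhydrolase gene Bo6g032890 was at 219 and 26.9 RPKM and so 8.13-fold lower. No gene of the table was annotated to wax synthesis, cutin, fatty acid elongation or desaturation by the words searched, which says nothing about the level of genes outside the table.

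Among the small secreted antimicrobial and pathogenesis-related proteins, the class to which lipid transfer proteins are counted, 6 of 9 genes were higher and 3 lower. Over all listed genes 52.6% were higher. The words did not match the defensin homologue PDF1.1 (Bo2g086460), higher at 22.1 and 58.5 RPKM, which is thus outside the count. The median log2 ratio of the 9 genes was 1.57, with the 3 lower genes included. For the 3 lipid transfer protein genes, all of them higher, it was 2.32, so these medians are not of like sets. The median was 1.04 for the table and 1.58 for its 71 higher genes. The members with the largest ratios were the CAP gene Bo1g007900, 13.9-fold lower from 91.8 RPKM, the defensin homologue Bo6g086120, 8.58-fold higher at 130 RPKM, and the chitinase Bo4g020920. In the calcium group LTP3 (753 RPKM) stood below PR-4 (987 RPKM) and above the other 8 genes of that list.

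For water deficit and abscisic acid, to which LTP3 responds in Arabidopsis, the words matched 1 higher and 1 lower gene. The late embryogenesis abundant gene M17 (Bo4g190800) was at 2.42 and 50.1 RPKM, 20.7-fold higher, and the vacuolar channel gene Bo7g077600 (tonoplast intrinsic protein 2;3) was at 43.9 and 6.80 RPKM, 6.45-fold lower. The words did not catch HB-12 (Bo4g100070), a homeobox gene that responds to drought and abscisic acid in Arabidopsis. The count therefore does not hold every listed gene tied to these responses. HB-12 came up only after the values were seen, and no full search by hand was made for higher or lower genes. No direction is read for these responses. No gene matched the words for MYB and the other epidermal transcription factors. HB-12, annotated with the word homeobox, was not caught by the word homeodomain, so this speaks only for the words searched.

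Of the 6 genes matched by the words for cell wall loosening 5 were higher and 1 was lower, where 52.6% of the listed genes were higher. The word pectin brought in Bo3g037670 and Bo9g014930, whose annotation names an inhibitor superfamily and no wall loosening. That name does not say whether either protein is an inhibitor. The lower gene of the list is among these genes. The median log2 ratio of all 6 was 1.38, near that of Bo9g120390. The higher genes ran from 2.06-fold (XTH15) to 5.91-fold (Bo3g175620, a homologue of XTH17), with Bo1g014320 (XTH18) at 2.99-fold, the pectin methylesterase inhibitor superfamily gene Bo3g037670 at 2.63-fold and the expansin EXPA10 at 2.59-fold. The lower gene was Bo9g014930 of the same superfamily, at 2.09-fold. With calcium, LTP3, LTP4 and Bo9g120390 each stood above all 6 in RPKM, the highest of which, Bo9g014930, was at 242 RPKM. With water the order was different: Bo9g014930, at 505 RPKM, stood above all 3 members, and XTH15 (105 RPKM) and XTH18 (70.9 RPKM) stood above LTP4.

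The seed and embryo words matched Bo9g120390 itself, through its superfamily name, and M17. No napin, cruciferin or oleosin gene was matched in the table. RGF9 (Bo2g166400), a peptide hormone gene of the root meristem and the only root word match, was at 54.3 and 16.2 RPKM, 3.36-fold lower. The cotyledon and leaf markers were 2.01-fold to 3.83-fold lower, with a median log2 ratio of -1.23.

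**Figure D4:**
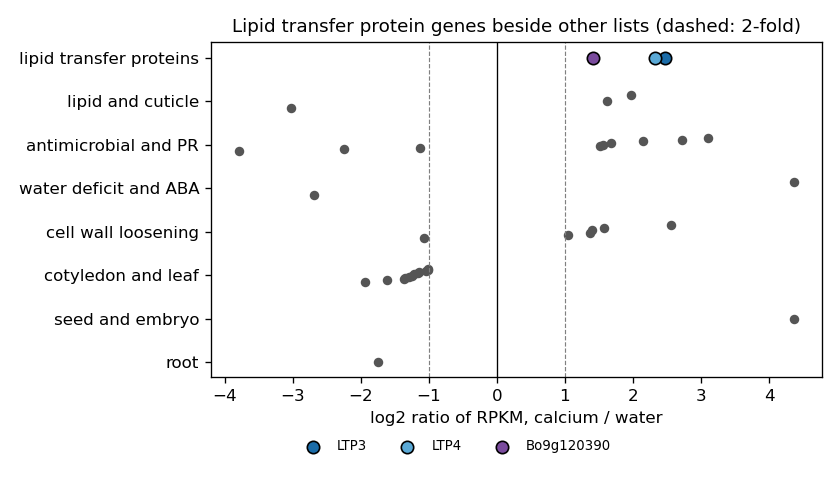
Log2 ratio of RPKM (calcium over water) of the 3 lipid transfer protein genes (coloured) and of the genes in 7 word lists (grey, 1 point for each gene, spread vertically for legibility), with dashed lines at 2-fold. The lipid transfer protein genes lie at 1.41, 2.32 and 2.48, while the lipid and cuticle, antimicrobial, water deficit and cell wall lists hold genes on both sides and the 12 leaf markers are all below 0. In the cell wall list the lower gene is of the invertase/pectin methylesterase inhibitor superfamily.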

How the data were processed

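Per the labels' protocols, column-purified total RNA went into Illumina TruSeq libraries. CASAVA is named in the submitters' processing notes, with no version. Aligner, genome build, annotation and statistical test are unknown, as no source used here names them. The authors deposited 1 RPKM value for each gene and group, its log10, a signed fold change and difference (columns with values below 0, treated as a score), an adjusted p-value and a cluster number, per the file headers. How the 2 libraries of a group were combined is not given. The control column was taken as water. The log10 columns and the fold change were checked against the RPKM values. An error in a gene's annotated length would move that gene's RPKM in both groups, and so its share and its order among the members, but cancels in its ratio between groups. An error in a mapped total would move all values of that group.

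Ratios are calcium over water RPKM without a pseudocount. A test by limma needs values of single libraries and was not run. The rule for named genes took all members, the 3 nearest genes of each, and the genes of 9 word lists (the 3 of largest ratio where a list held over 6). Words were matched at the start of a word. The members and lists were chosen with earlier results of these data known. The reference gene table held 0 of the 135 identifiers, so no sequence or position is printed. The computations were tested on simulated data. Python 3.11.15, NumPy 2.4.6, pandas 2.3.3 and matplotlib 3.10.9 were used.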

Additional observations from a re-analysis of the deposited data

How the results depend on the processing

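All 3 genes stayed higher with calcium under each alternative run, but none of these runs could have reversed the direction. The same amount added to both groups cannot reverse a ratio, and the scaling raised every calcium value. With 1 RPKM added to both groups the ratios were 5.54 for LTP3, 4.94 for LTP4, 2.64 for Bo9g120390 and 4.24 for the sum, and with 5 RPKM added they were 5.41, 4.71, 2.59 and 4.20. When the columns were scaled to equal sums over the table, they were 6.29, 5.65, 2.99 and 4.80. That scaling uses selected genes alone and multiplies every calcium value by 1.13, so it does not normalize the libraries. Without the 2S albumin superfamily gene the ratio of the sum was 5.39, and LTP3 held 68.2% of it with water and 70.5% with calcium, while LTP4 held 31.8% and 29.5%. The share of LTP4 thus was higher with calcium only with Bo9g120390 in the sum. The count of 3 members was 2 at 3-fold and at 4-fold. It stayed at 3 with at least 5 RPKM in a group and with a deposited adjusted p under 0.001. Neither of these filters could remove a member, given the levels and deposited p-values above. At 3-fold the higher genes matched by the words for cell wall loosening went from 5 to 1. Leaving the leaf markers out of the table sum, which was chosen after seeing the data, gave shares of 2.87% with water and 8.30% with calcium. No paired analysis was possible because the table holds 1 value per group, and leaving out single libraries was not run for the same reason.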
